A study of Homo sapiens with 124 samples.

Results

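Olfactory receptor genes lie in clusters on many human chromosomes, and 13 of these clusters were followed here for their contact with the nuclear lamina in single cells. The members are the 100 kb bins of the deposited table that start inside 13 listed stretches of the genome, 140 bins or 14.0 Mb in hg19, and the list was drawn up with earlier results of these data known. A bin was usable if no cell lacked a number for it and any cell had a value above 0, which held for 137 bins, and the other 3, all in the cluster at 11p11, were left out. They are 137 of 26426 usable bins. In all, 92 of the 137 bins belong to 6 clusters on chromosome 11.

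The cells were KBM7, a human leukaemia line with a nearly haploid genome, and all were haploid cells of clone 14, so that most loci are present in a single copy. Each expressed LaminB1, which is part of the protein meshwork under the nuclear envelope, fused to the bacterial methyltransferase Dam. The activity of the fusion was induced for 15 h with 0.5 nM Shield1, a small molecule that stabilises proteins carrying a destabilising domain, and the smallest 2% of the cells positive for both Fucci cell cycle markers were sorted singly. The labels describe 124 such cells in a single group with no other genotype, treatment or time, and 118 of them were analysed. The deposited value of a bin is a ratio of observed to expected reads, and a bin was taken to be in contact in a cell where this ratio was at least 1. Its contact frequency gives how many of the 118 cells, in percent, had it in contact. The labels name no cultures, so SDs measure the spread between cells, no tests between groups were possible, and all comparisons are descriptive.

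The olfactory receptors form the largest gene family of mammals and encode G protein-coupled receptors that bind odorants. In the nose, a mature sensory neuron expresses a single allele of a single receptor gene, while the other members of the family stay silent, packed in heterochromatin. Outside the olfactory epithelium the genes are mostly silent, and their clusters are A+T-rich and poor in CpG, features they share with lamina-associated domains, the large stretches of chromatin that touch the nuclear lamina. Expression was not measured in these cells. Dam marks a locus near the lamina by methylating adenine in GATC, and DpnI cuts only the methylated motif, so a GATC must be present for a read to arise.

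The stretches upstream of receptor genes were examined for base composition and for the motif that the assay reads. They are a small part of the clusters, and the base composition and GATC content of the 100 kb bins were not measured. RefSeq (GRCh38.p14) lists 875 olfactory receptor genes, 392 of them protein-coding, and 501 of them, 272 protein-coding and 229 pseudogenes, lie in the gene order between the receptor genes taken as the first and last of the 13 clusters. The bins themselves are in hg19, so genes were tied to clusters by their order and by textbook knowledge, not by coordinates, and which bins hold receptor genes was not checked. Upstream sequences of 250 bases were matched for 220 of the 272 protein-coding genes, and 7 of these had 2 promoters, which gave 227 sequences. They held 62.6% ± 7.50 A+T (SD, n = 227 promoters), against 42.8% ± 13.7 over all 35116 promoters of the table, and a mean of 1.52 CpG dinucleotides against 13.7. The motif GATC, which reads the same on both strands, was present in 91 of the 227 sequences (40.1%) and in 35.8% of all promoters. The sequences below are upstream stretches from clusters with frequent contact (OR8D2 of 11q24, OR4C15 of 11q11, OR13C4 of 9q31) and with rare contact (OR1J4 of 9q33, OR3A1 of 17p13). Each is the GATC-bearing promoter of its cluster whose A+T content is nearest to the mean of that cluster, 5′ to 3′ on the strand of the gene, with GATC in capitals.
OR8D2: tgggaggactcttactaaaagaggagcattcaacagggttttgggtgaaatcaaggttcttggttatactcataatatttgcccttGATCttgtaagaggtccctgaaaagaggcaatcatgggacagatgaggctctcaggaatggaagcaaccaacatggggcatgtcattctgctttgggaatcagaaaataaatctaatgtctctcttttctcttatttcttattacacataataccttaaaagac
OR4C15: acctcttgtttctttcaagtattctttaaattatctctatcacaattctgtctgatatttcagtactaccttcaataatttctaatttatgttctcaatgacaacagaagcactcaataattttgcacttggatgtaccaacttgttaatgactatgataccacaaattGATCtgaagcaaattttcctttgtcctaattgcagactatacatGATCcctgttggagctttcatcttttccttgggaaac
OR13C4: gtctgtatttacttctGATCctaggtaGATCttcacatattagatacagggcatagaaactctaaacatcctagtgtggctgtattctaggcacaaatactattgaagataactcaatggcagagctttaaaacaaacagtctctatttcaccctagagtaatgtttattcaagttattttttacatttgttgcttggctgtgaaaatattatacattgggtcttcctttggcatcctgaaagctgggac
OR1J4: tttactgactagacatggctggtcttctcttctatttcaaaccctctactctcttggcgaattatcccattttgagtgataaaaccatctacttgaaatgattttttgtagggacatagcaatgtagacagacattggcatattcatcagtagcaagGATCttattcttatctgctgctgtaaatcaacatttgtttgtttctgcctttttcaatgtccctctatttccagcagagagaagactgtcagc
OR3A1: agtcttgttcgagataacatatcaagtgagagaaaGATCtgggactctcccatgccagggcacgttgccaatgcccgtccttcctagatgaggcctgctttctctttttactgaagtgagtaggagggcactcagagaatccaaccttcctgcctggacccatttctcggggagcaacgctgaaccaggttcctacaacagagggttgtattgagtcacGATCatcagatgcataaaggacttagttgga
Their GRCh38.p14 positions are chr11:124320198-124320447 on the minus strand for OR8D2, chr11:55554219-55554468 on the plus strand for OR4C15, chr9:104527210-104527459 on the minus strand for OR13C4, chr9:122518891-122519140 on the plus strand for OR1J4 and chr17:3298361-3298610 on the minus strand for OR3A1. The 3 sequences from the clusters with frequent contact hold 0 CpG each, with 60.8% A+T for OR8D2, 67.2% for OR4C15 and 64.0% for OR13C4. OR1J4 has 62.0% A+T and 1 CpG, and OR3A1 has 50.8% A+T and 6 CpG. Over all matched promoters of a cluster, the mean number of CpG was 1.44 at 11q24, 0.977 at 11q11 and 1.25 at 9q31. It was 1.33 at 9q33 and 6.67 at 17p13, so 0 CpG holds for the 3 promoters shown and not for their clusters. The A+T content of OR1J4, from the rarely contacted 9q33 cluster, lies above that of OR8D2 and below those of OR4C15 and OR13C4.

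Over all 137 bins, the receptor clusters were in contact more often than their surroundings and more often than the genome as a whole. The share of cluster bins in contact was 54.1% ± 15.0 per cell (SD, n = 118), with 13.1% in the lowest cell, 56.6% in the median cell and 78.1% in the highest. The flanks, 1 Mb on each side without bins of other clusters, were at 13.7% ± 5.11, from 4.48 to 26.4%. All usable bins were at 33.0% ± 5.47. Within a cell the clusters exceeded their flanks by 40.4 ± 11.9 percentage points, and they did so in 118 of 118 cells. They exceeded the cell's own share over all usable bins by 21.2 ± 11.8 points, in 110 of 118 cells. With each cluster weighted equally, the mean was 51.1% ± 13.2. The clusters make up 0.518% of the usable bins and held 0.851% of all contacts.

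Most cluster bins were contacted in some cells and not in others. Bins at 20 to under 80% numbered 95 of 137, or 69.3%, where 33.9% of all usable bins were in this class. Bins under 20% numbered 23 (16.8%, against 51.1% of all usable bins), and bins at 80% or more numbered 19 (13.9%, against 15.1%). The clusters thus differed from the genome in the middle and low classes, and the share of bins at 80% or more was close to that of all usable bins. The flanks lay the other way, with 159 of their bins (79.1%) under 20%. Only 1 cluster bin had no contact in any cell, at the end of the 1q44 cluster. A frequency of 0 of 118 cells allows up to 3.08% by the exact 95% Clopper-Pearson interval, which covers the counting of cells only. On chromosome 11, 66 of 92 cluster bins (71.7%) were at 20 to under 80%, against 29.6% of the other 1216 usable bins of that chromosome. Of the cluster bins, 29.2% had under 3 reads behind a ratio of 1 in the median cell, against 4.05% of all usable bins. The 11p11 cluster alone held 28 of the 95 bins at 20 to under 80%. Without bins under 3 reads, an alternative added after the data were seen, 61.9% of the cluster bins were in this class. Without the clusters beside the centromere of chromosome 11 the share was 57.3%.

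**Figure D1:**
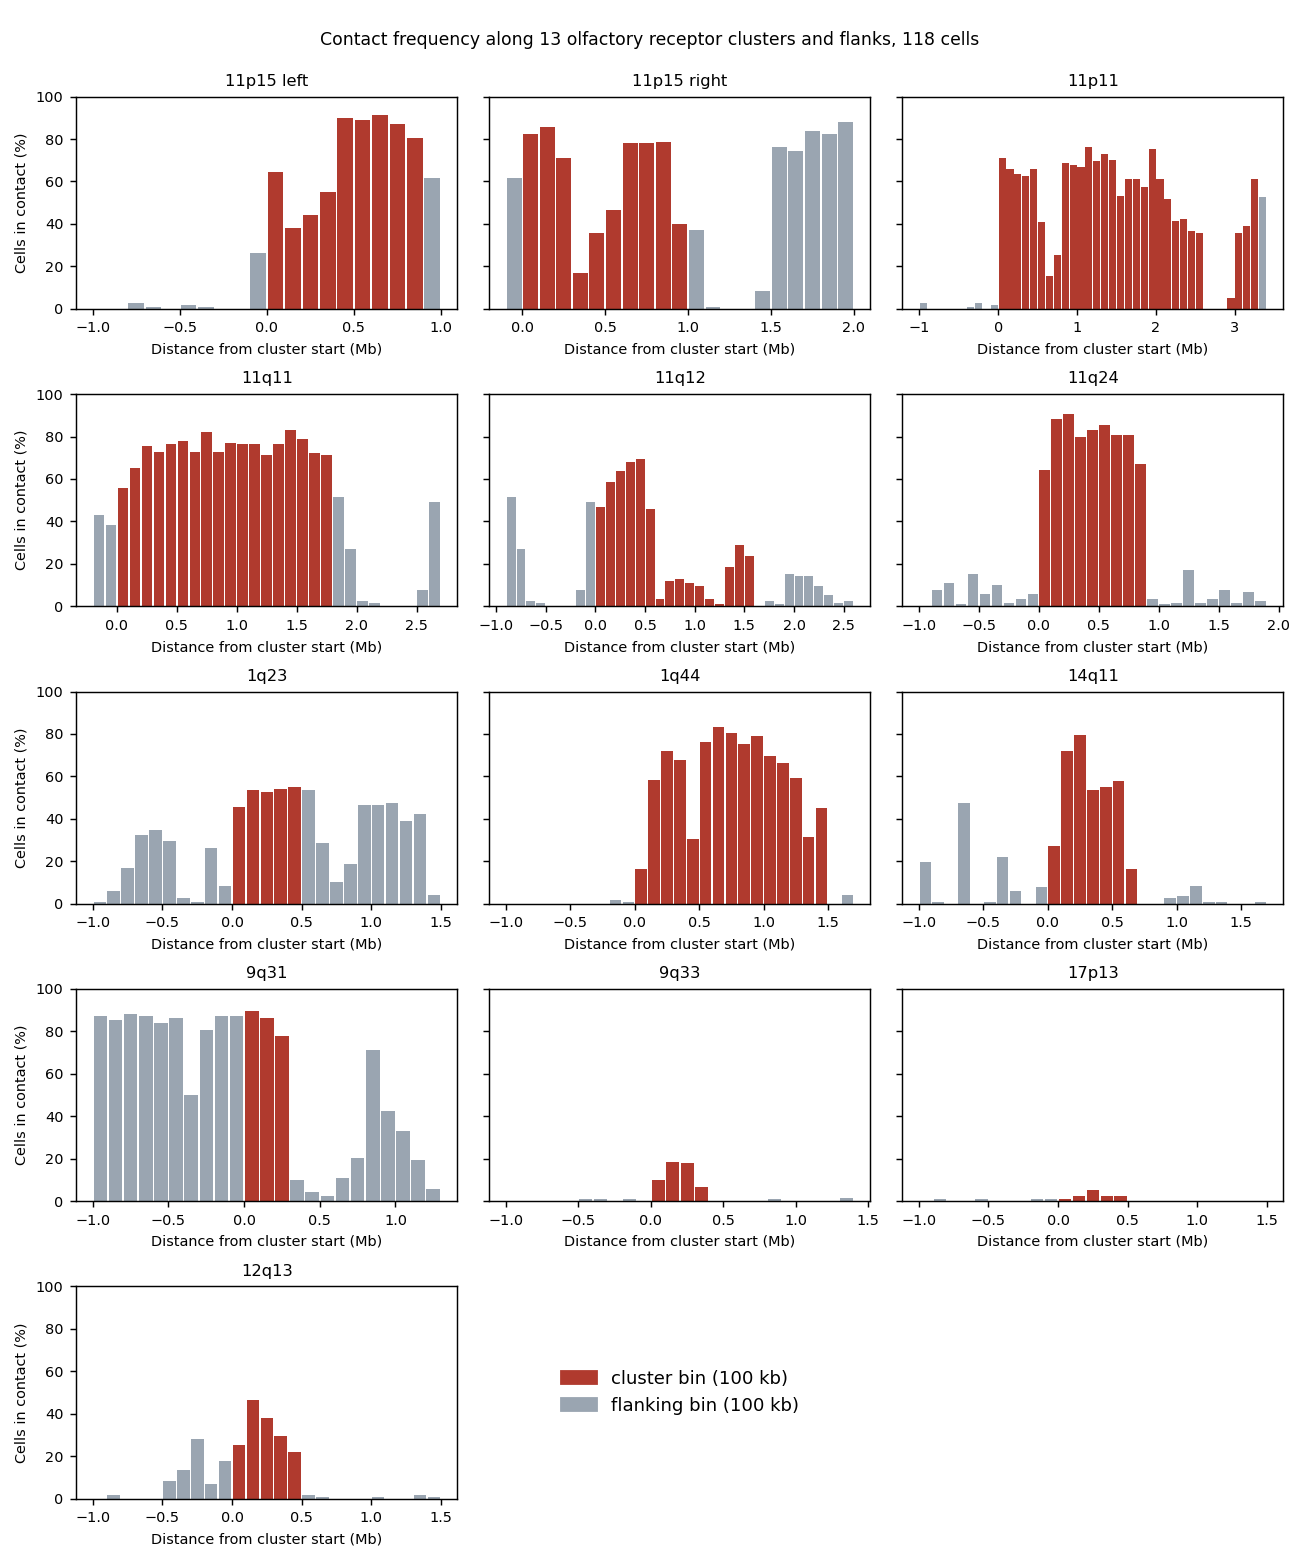
Contact frequency (percent of 118 cells in contact, vertical axis) of each 100 kb bin of the 13 clusters (red) and of their flanks within 1 Mb (grey), by distance from the start of the cluster in Mb. The 11q24 cluster stands at 64.4 to 90.7% between flanks with means of 6.19 and 4.66%, while the bins of 17p13 do not exceed 5.08%. Gaps are bins that were not usable or, in the flanks, belong to another cluster.

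The order of the 13 clusters ran from 84.7% to 2.71%. The cluster at 9q31 was highest with 84.7% ± 29.1 (SD over 118 cells, as for all clusters), followed by 11q24 at 79.9% ± 25.0, 11q11 at 74.1% ± 31.2, the left cluster of 11p15 at 71.1% ± 25.3 and the right cluster of 11p15 at 61.3% ± 26.7. Then came 1q44 at 56.9% ± 28.7, 11p11 at 54.0% ± 21.4, 1q23 at 52.2% ± 42.0 and 14q11 at 51.6% ± 29.2. The lowest were 12q13 at 32.4% ± 36.5, 11q12 at 29.7% ± 21.7, 9q33 at 13.3% ± 25.9 and 17p13 at 2.71% ± 11.7. In each of the 12 steps of this order the mean difference within a cell was smaller than its SD over cells. That SD is the spread of single cells and a wide limit for a mean over 118 cells. The largest step, from 14q11 to 12q13, was 19.2 ± 48.9 points, and 14q11 was the higher in 74 cells and 12q13 in 36. All 13 clusters lay above their own flanks, 9 of them by at least 20 points. For comparison, 12.1% of all 0.5 Mb windows and 12.8% of all 1 Mb windows tiled along the genome lay at least 20 points above their 1 Mb flanks. The share of windows above their flanks by any amount is not given here, so the count of 13 has no background. The smallest difference was 2.54 ± 11.4 points at 17p13, where cluster and flanks were equal in 109 of 118 cells. The mean over all usable bins, 33.0%, was exceeded by 9 clusters, and 12q13 lay just under it. The median over all usable bins was lower, at 17.8%, and the share of bins or windows above 33.0% is not given here.

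**Figure D2:**
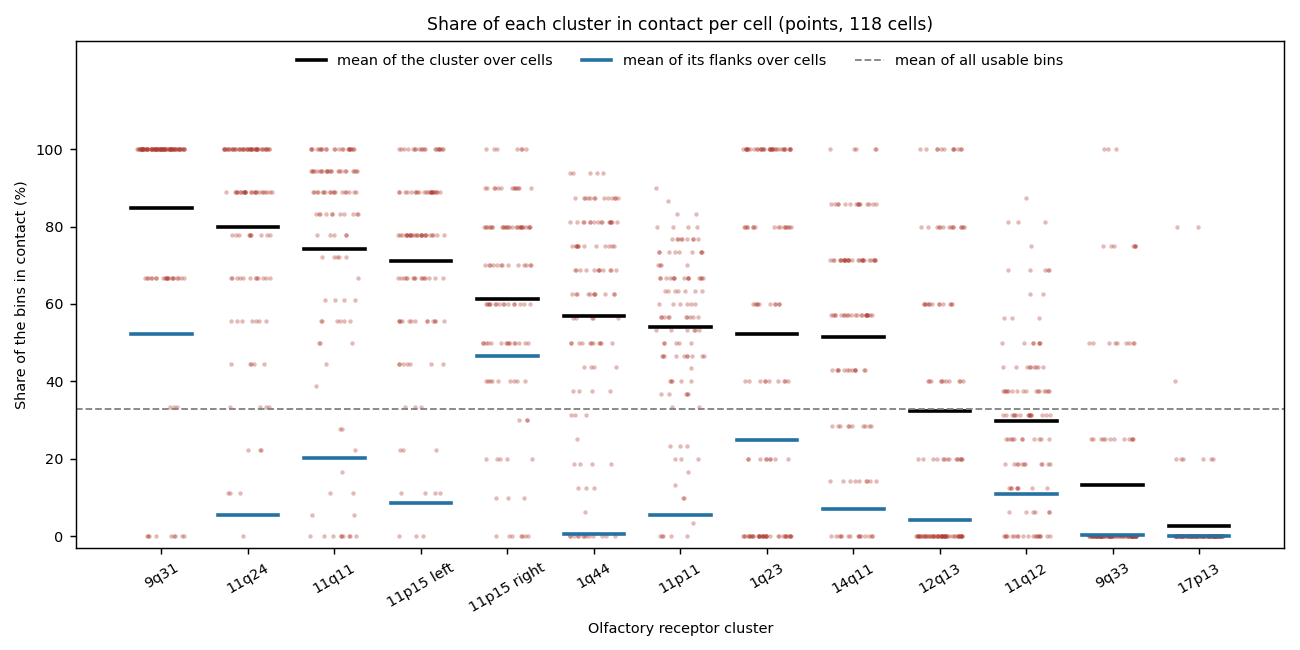
Share of the bins of each cluster in contact in every cell (points, 118 cells, vertical axis in percent), with the clusters ordered by their mean (black line). Blue lines are the means of the flanks and the dashed line the mean of all usable bins, 33.0%. The clusters at 1q23 and 12q13 spread from 0 to 100%, and the flank mean lies below the cluster mean in each of the 13 cases.

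The cluster at 11q24, from 123600001 to 124500000 on chromosome 11 and 0.9 Mb long, holds receptor genes from OR6X1 to OR8Q1P in RefSeq order. Its share in contact ranged from 0 to 100% with a median of 88.9% over the cells. The lowest of its 9 bins was the first, from 123600001 to 123700000, in contact in 76 of 118 cells (64.4%, exact 95% interval 55.1 to 73.0%). The highest, from 123800001 to 123900000, was in contact in 107 cells (90.7%, 83.9 to 95.3%). The left flank was at 6.19% and the right flank at 4.66%. The cluster exceeded its flanks in 117 of 118 cells, by 74.5 ± 24.9 points on average, and the remaining cell had no contact in either. In 47 cells all 9 bins were in contact, and in 102 cells more than 50% were.

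The clusters at 11p15 lie on both sides of the beta-globin genes, which encode the beta chain of haemoglobin and its fetal and embryonic relatives. The left cluster, from 4300001 to 5200000, rose in 2 parts. Its first 4 bins were at 50.4% ± 34.9, and its last 5 bins, next to the globin genes, were at 87.6% ± 25.1. The lowest bin, from 4400001 to 4500000, was in contact in 45 cells (38.1%, 29.4 to 47.5%), and the highest, from 4900001 to 5000000, in 108 cells (91.5%, 85.0 to 95.9%). The left flank was at 3.22%, and the cluster exceeded its flanks in 115 cells and fell below them in 0. The median cell had 77.8% of the cluster in contact, and 3 cells had none of it.

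The single bin between the 11p15 clusters, from 5200001 to 5300000, was in contact in 61.9% of the cells and so lay below the cluster bins on both sides, at 80.5 and 82.2%. The last 5 bins of the left cluster and the first 3 bins of the right cluster were both more than 50% in contact in 97 cells. The bin between them was in contact in 68 of those 97 cells (70.1%), and in 23.8% of the other cells. Of these others, 8 had only the left part, 2 only the right part and 11 neither part at more than 50%. The part of depth and of the cell's share over all usable bins was not tested.

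The right cluster of 11p15, from 5300001 to 6300000, showed a dip in its middle. Its first 3 bins were at 79.7% ± 31.1, the next 3 at 33.1% ± 34.2, and the 3 after those at 78.2% ± 32.7. The lowest bin, from 5600001 to 5700000, was in contact in 20 cells (16.9%, 10.7 to 25.0%), while the highest, from 5400001 to 5500000, was in contact in 101 cells (85.6%, 77.9 to 91.4%). Both parts beside the dip were more than 50% in contact in 89 cells, and the dip had no contact at all in 29 of these and more than 50% in 37. RefSeq order places 5 protein-coding genes that are not olfactory receptors inside this cluster, between OR52B6 and OR52U1P: TRIM5, TRIM6, TRIM6-TRIM34, TRIM34 and TRIM22, which encode tripartite motif proteins with roles in restricting viruses. No hg19 annotation was used, so whether these genes fill the dip was not tested. The cluster was at 61.3% and its right flank at 45.2%, since that flank ends in a stretch of bins at 74.6 to 88.1%. It exceeded its flanks in 87 cells and fell below them in 26, by 14.6 ± 20.5 points on average, and by 43.2 points when only 0.5 Mb on each side was used, 30.2 with 2 Mb and 3.60 with bins of other clusters kept in the flanks.

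The 2 clusters beside the centromere of chromosome 11 differed in how evenly they were contacted. The cluster at 11q11, from 55000001 to 56800000, is the richest in receptor genes, with 106 in RefSeq order. All of its 18 bins were at 55.9 to 83.1%. The lowest, from 55000001 to 55100000, was in contact in 66 cells (55.9%, 46.5 to 65.1%), and the highest, from 56400001 to 56500000, in 98 cells (83.1%, 75.0 to 89.3%). The median cell had 88.9% of the cluster in contact, 23 cells had all of it and 9 cells none. Its left flank had 2 usable bins, both under 3 reads at a ratio of 1 in the median cell, and was at 40.7%. The 9 usable bins of its right flank, which are also the left flank of 11q12, were at 15.5%.

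The cluster at 11p11, from 48200001 to 51500000, is the longest with 3.3 Mb, and its left end was the sharpest border. The last bin outside was in contact in 1.69% of the cells and the first bin inside in 71.2%, a step of 69.5 points, and only 2 of the 84 cells with contact inside had contact outside. Its left flank was at 0.763% over 10 bins. The right flank had 1 usable bin, at 52.5%, and the step at the right end was 8.47 points. Within the cluster the first 5 bins were at 65.9% ± 32.2, 2 bins from 48800001 to 49000000 dipped to 20.3% ± 30.1, the next 14 bins were at 65.3% ± 25.5, and the last 8 usable bins, towards the centromere, at 37.1% ± 23.4. The highest bin, from 49300001 to 49400000, was in contact in 90 cells (76.3%, 67.6 to 83.6%), and the lowest, from 51100001 to 51200000, in 6 cells (5.08%, 1.89 to 10.7%).

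Few reads stood behind the values at 11p11. In 28 of its 30 usable bins a ratio of 1 corresponded to fewer than 3 reads in the median cell, against 4.05% of all usable bins, so that single reads decided contact there. The bins of the dip had no read in 100 and 88 of the 118 cells, and in both a single read gave a ratio above 1 in the median cell. The part of this low depth in the dip and in the low bins near the centromere was not tested. The first 2 bins of the cluster were the ones with at least 3 reads, and they were at 68.6% on average. Without all bins under 3 reads, an alternative added after the data were seen, the clusters together were at 55.0%.

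The cluster at 1q44, from 247600001 to 249200000, is the last on the long arm of chromosome 1, with 0.1 Mb of usable sequence beyond it. Its left flank was at 0.254%, and it exceeded its flanks in 105 cells and fell below them in 0, by 56.3 ± 28.4 points. The highest bin, from 248200001 to 248300000, was in contact in 98 cells (83.1%, 75.0 to 89.3%). The last bin, from 249100001 to 249200000, had no contact in any cell, and the first, from 247600001 to 247700000, was at 16.1%, so that contact lay between the 2 ends of the stretch. The median cell had 62.5% of the cluster in contact and the highest 93.8%, and 13 cells had none. A ratio of 1 stood for under 3 reads in 6 of its 16 bins.

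At 14q11, from 20100001 to 20800000, contact was also highest inside the cluster. The bin from 20300001 to 20400000 was in contact in 94 cells (79.7%, 71.3 to 86.5%), and the last bin, from 20700001 to 20800000, in 19 cells (16.1%, 9.98 to 24.0%). The median cell had 57.1% of the cluster in contact, within a range of 0 to 100%. The left flank, of which 7 bins were usable, was at 14.9% and the right flank at 1.69%. In all 7 bins of the left flank a ratio of 1 stood for under 3 reads in the median cell (0.0356 to 0.445 reads), so that a single read counted as contact there, and 2 of the 7 cluster bins were also under 3 reads. Without bins under 3 reads, the flanks were at 1.69% and the cluster at 52.4%. The cluster exceeded its flanks in 103 cells, by 44.4 ± 25.7 points.

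The clusters at 9q31 and 1q23 lay beside or within other contacted sequence. The 3 bins at 9q31, from 107200001 to 107500000 on the sequence 9:22 that stands for the translocated chromosome 9 in the table, were at 78.0 to 89.8%, with 106 cells in contact at the first bin (89.8%, 82.9 to 94.6%) and 92 at the third (78.0%, 69.4 to 85.1%). The left flank was at 82.4%, so the cluster formed the right end of a longer contacted stretch, and the first bin beyond it fell to 10.2%. In 85 of 118 cells all 3 bins were in contact, and 9 cells had none of them. The 5 bins at 1q23, from 158300001 to 158800000, were all between 45.8% (54 cells, 36.6 to 55.2%) and 55.1% (65 cells, 45.7 to 64.3%), and the first bin to their right was at 53.4%. At 1q23, 37 cells had all 5 bins in contact, 36 had none and 45 had some of them. At 12q13, which also has 5 bins, these numbers were 12, 54 and 52.

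Contact at 12q13 and 11q12 was lower. The 5 bins of 12q13, from 55500001 to 56000000, reached 46.6% (55 cells, 37.4 to 56.0%) in the bin from 55600001 to 55700000 and fell to 22.0% (26 cells, 14.9 to 30.6%) in the last. In 54 cells none of the 5 bins was in contact and in 12 all were. The cluster exceeded its flanks in 64 cells and fell below them in 6, by 28.3 ± 31.9 points.

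The cluster at 11q12, from 57700001 to 59300000, fell into 3 parts. Its first 6 bins were at 58.6% ± 37.5, the 7 in the middle at 7.51% ± 16.1 and the last 3 at 23.7% ± 35.2. The highest bin, from 58100001 to 58200000, was in contact in 82 cells (69.5%, 60.3 to 77.6%), and the lowest, from 58900001 to 59000000, in 1 cell (0.847%, 0.0215 to 4.63%). These parts were delimited after the frequencies were seen. In RefSeq order the cluster has receptor genes up to OR5B21, then 12 other protein-coding genes, and receptor genes again from OR5AN2P. The 12 genes include LPXN, which encodes the adaptor leupaxin, CNTF, which encodes ciliary neurotrophic factor, GLYAT and its relatives, which encode glycine N-acyltransferases, and MPEG1, which encodes the pore-forming perforin-2 of macrophages. Whether these genes fill the middle bins was not tested. The first and last parts were both more than 50% in contact in 21 cells, and the middle part had no contact in 8 of these.

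The lowest clusters, 9q33 and 17p13, lay in sequence with almost no contact. At 9q33, from 125200001 to 125600000 on 9:22, the highest bin, from 125300001 to 125400000, was in contact in 22 cells (18.6%, 12.1 to 26.9%) and the lowest, from 125500001 to 125600000, in 8 (6.78%, 2.97 to 12.9%). Its flanks were at 0.254% on both sides, and the cluster exceeded them in 31 cells, fell below in 2 and was equal in 85. At 17p13, from 2900001 to 3400000, no bin was in contact in more than 6 cells (5.08%, 1.89 to 10.7%, from 3100001 to 3200000), the lowest had contact in 1 cell, and 109 of 118 cells had none. The left flank was at 0.339% and the right flank at 0. Chromosome 17 outside the cluster was at 9.50%, below the 33.0% of the genome. No bin of any cluster differed by 40 points or more from both of its neighbours in the cluster.

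At the borders the change was often steep. Of the 26 cluster ends, 23 had a higher frequency in the first bin inside than in the first bin outside, with a median step of 16.9 points. The median absolute step over all pairs of neighbouring usable bins was 3.39 points. No genome-wide share for the direction of a step is given here, so the count of 23 has no background. The facing ends of the 11p15 clusters share the same bin outside. At 9 of the 26 ends the 2 bins differed by at least 20 points, and at 4 by at least 40 points. Among all 26246 pairs of neighbouring usable bins, 9.43% differed by at least 20 points and 2.16% by at least 40, in either direction. The 4 steepest ends were the left end of 11p11 with 69.5 points, the right end of 9q31 with 67.8, and the right and left ends of 11q24 with 63.6 and 58.5. At 11q24, 79 cells had contact in the last bin inside, and 4 of these had contact in the first bin outside (5.06%), whereas 89.9% had contact in the next bin inwards. At the right end of 1q23, where the step was 1.69 points, 54 of the 65 cells with contact inside also had contact outside (83.1%). In the 102 cells with more than 50% of the 11q24 cluster in contact its flanks were at 6.18%. They were at 0.625% in the other cells, 15 with part of the cluster in contact and 1 with none. The flanks were thus higher when the cluster was in contact, though both values were low. At 1q23 the flanks were at 41.3 and 5.91%. Depth and the cell's share over all usable bins were not removed in these comparisons, and their part was not tested.

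The ratio in contacting cells was higher in bins of higher frequency, in the clusters as in the genome. This signal, the median ratio among cells that contact a bin, was taken for bins with at least 5 such cells. Cluster bins had a median signal of 2.23 (quartiles 1.84 and 2.50, 129 bins), and all usable bins 2.03 (1.64 and 2.37, 16538 bins). Within classes of frequency the medians were 2.54 against 2.50 at 80% or more, 2.22 against 1.99 at 20 to under 80%, and 1.43 against 1.45 under 20%. By cluster the signal was highest at 9q31 with 2.76 and lowest at 17p13 with 1.51, where a single bin had enough cells. In the median cell a ratio of 1 stood for 4.83 reads in the median cluster bin and for 5.63 in the median of all usable bins, and 28.0% of the values in clusters were without a read, against 45.6% over all usable bins. Recovered reads per cell ranged from 28372 to 385661.

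The number of clusters in contact varied widely between cells, and no cell had all 13 mostly in contact. On average 7.00 ± 2.31 of the 13 clusters (SD, n = 118) had more than 50% of their bins in contact. The lowest count was 1 cluster, in 2 cells, the median 7 and the highest 11, in 2 cells. The number of clusters moved with the depth of the cell, with Pearson's r of 0.63 against recovered reads over the 118 cells, and its part in the count was not tested further than by thinning. In the 109 cells thinned to 50000 reads the mean was 6.42 ± 1.93 clusters, from 1 to 10, against 7.30 ± 2.08 in the same cells before thinning. No cluster was in contact in every cell: 11q24 lacked contact in 1 cell, the left cluster of 11p15 in 3, 11p11 in 5, the right cluster of 11p15 in 7, and 9q31 and 11q11 in 9 each. The cell with the lowest share of cluster bins in contact, 13.1%, was also the cell with the lowest share over all bins, 18.3%, and that of the highest share of clusters, 78.1%, was another than that of the highest share over all bins.

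**Figure D3:**
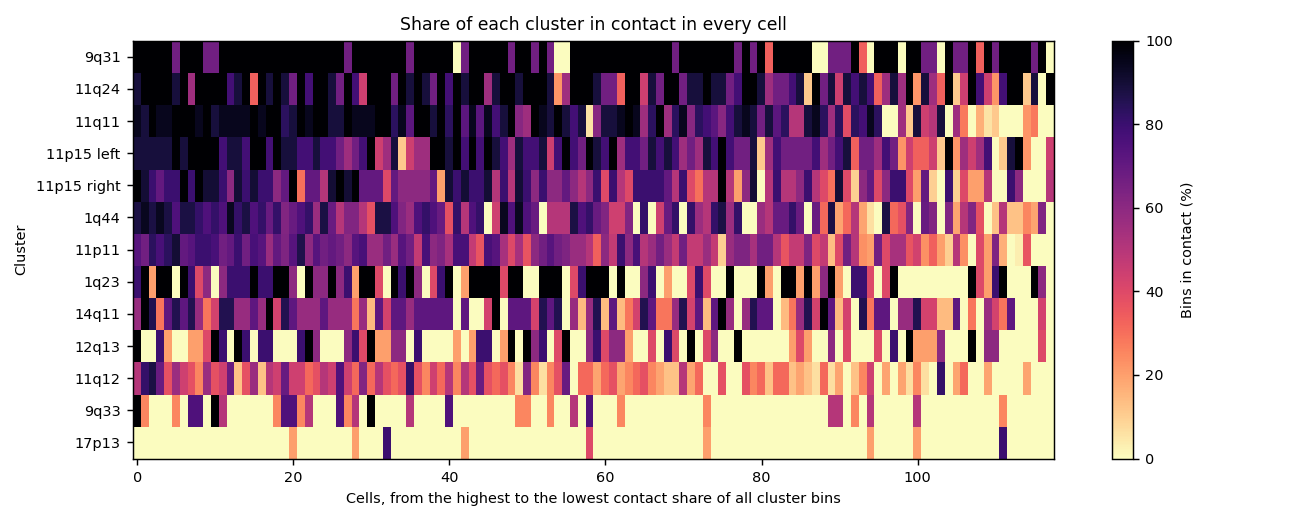
Percent of each cluster's bins in contact (colour scale, 0 to 100%) in each of 118 cells (columns, ordered by the share of all cluster bins in contact) for 13 clusters (rows, ordered by mean). The row of 9q31 is at 100% in 85 cells, the row of 17p13 is at 0 in 109, and cells with few contacts at the right lack different clusters.

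The cells were also divided by sample number, a division made with earlier results known and not given by the labels. In the 90 cells numbered 1 to 94 the clusters were at 51.2% ± 15.2, the flanks at 12.2% ± 4.20 and all usable bins at 31.9% ± 5.53. In the 28 cells numbered 96 to 124 they were at 63.5% ± 9.88, 18.7% ± 4.60 and 36.5% ± 3.44. The difference between clusters and flanks was 39.1 ± 12.8 points in the first set and 44.8 ± 6.86 in the second. The median recovered reads per cell were 133746.5 in the first set and 161506 in the second, and the part of depth in the differences between the sets was not tested. The labels name no batch. By cluster, 12 of the 13 were higher in the second set, with 25.3% ± 19.6 and 44.0% ± 22.3 at 11q12 and 56.1% ± 26.7 and 77.9% ± 18.9 at the right cluster of 11p15. The exception was 12q13, at 34.9% ± 35.9 in the first and 24.3% ± 37.9 in the second. The mean of all usable bins was also higher in the second set. How many of all usable bins were higher there is not given here, so the count of 12 has no background. For all 13 clusters the difference between the sets was smaller than the SD over the cells of the first set, and only at the right cluster of 11p15 was it larger than the SD over the cells of the second. These SDs are the spread of single cells and a wide limit for a difference between means. At 11q24 the means were 79.1% ± 26.3 and 82.5% ± 20.2. The lowest bin of the right 11p15 cluster, the first of its dip, was at 7.78% in the first set and 46.4% in the second.

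Contact of some neighbouring clusters on chromosome 11 varied together from cell to cell. With the cell's overall contact share regressed out, Pearson's r over the 118 cells was 0.63 between 11p11 and 11q11, on either side of the centromere, 0.55 between the left and right clusters of 11p15, 0.43 between 11q11 and 11q12, and 0.30 between 11p11 and 11q12. Of the 118 cells, 71 had more than 50% of both 11p11 and 11q11 in contact, 19 had it at neither, 25 at 11q11 alone and 3 at 11p11 alone. The right cluster of 11p15 had r of 0.20 with 11p11, the next cluster listed along the chromosome, 0.20 with 11q11 and 0.24 with 11q12. The cluster at 11q24, far down the long arm, had r of -0.09 with 11q12, the listed cluster nearest to it. Its r was -0.09 with 11p11, -0.01 with 11q11, 0.20 with the left cluster of 11p15 and 0.14 with the right. Over the 15 pairs on chromosome 11 the mean r was 0.20, with 12 pairs above 0. It was 0.36 without removing the contact share of the cell, and 0.21 in the cells numbered 1 to 94 and 0.11 in those numbered 96 to 124 with it removed. The pair on chromosome 1 had r of 0.08 and the pair on 9:22 r of 0.00. Over the 61 pairs on different sequences the mean r was 0.02 ± 0.10 (SD over pairs), from -0.19 to 0.27, with 34 pairs above 0, and the mean was 0.11 without removing the contact share. All values come from the same cells and share their reads and depth. In the cells numbered 96 to 124 alone, the r of 11p11 with 11q11 was 0.51 and that of the 11p15 clusters 0.31, and in the cells numbered 1 to 94 they were 0.67 and 0.59.

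**Figure D4:**
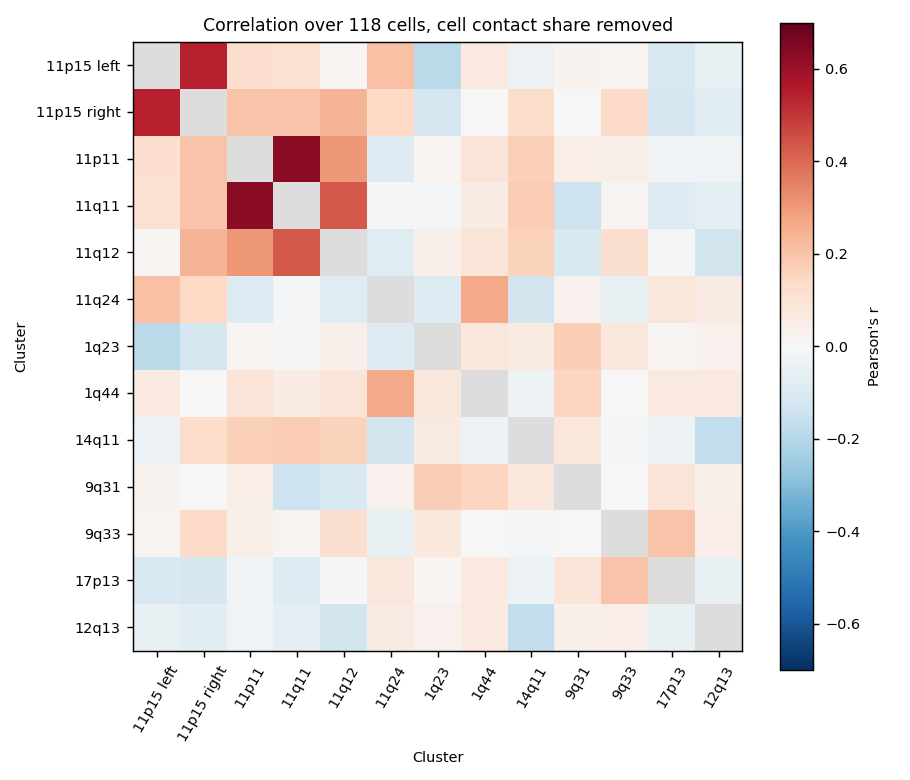
Pearson's r over 118 cells between the contact shares of 13 clusters, with the overall contact share of each cell regressed out (colour scale; the diagonal is grey). The clusters are ordered along chromosome 11 and then by chromosome, and the highest values are 0.63 for 11p11 with 11q11 and 0.55 for the 11p15 clusters.

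Gene features were set beside contact for the 13 clusters. Promoter A+T content was lowest at 17p13, with 54.4% ± 12.3 (SD over 9 promoters) and a mean of 6.67 CpG, and this was also the cluster with the rarest contact. A single promoter of the 9, that of OR3A2, has 28.8% A+T and 31 CpG, and no other has more than 7 CpG. Promoter A+T content was highest at 11q11 with 67.6% ± 4.76 over 43 promoters. At 12q13 it was 67.0% ± 5.34 over 15 promoters with contact at 32.4%, and at 11q24 it was 59.8% ± 3.78 over 16 promoters with contact at 79.9%. Over the 13 clusters, given as a description, Pearson's r between mean promoter A+T and contact was 0.42 and Spearman's rho 0.21, and r was 0.08 without 17p13, so the relation rests on that cluster. For the mean number of CpG, r was -0.55, and 0.04 without 17p13. For the number of receptor genes in the cluster r was 0.45, rho 0.42 and r without 17p13 0.38, and for receptor genes per Mb these were 0.33, 0.43 and 0.32. With 13 points no finding is drawn from them. Gene composition was taken from GRCh38 and contact from hg19, and they were joined only through the name of the cluster.

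**Figure D5:**
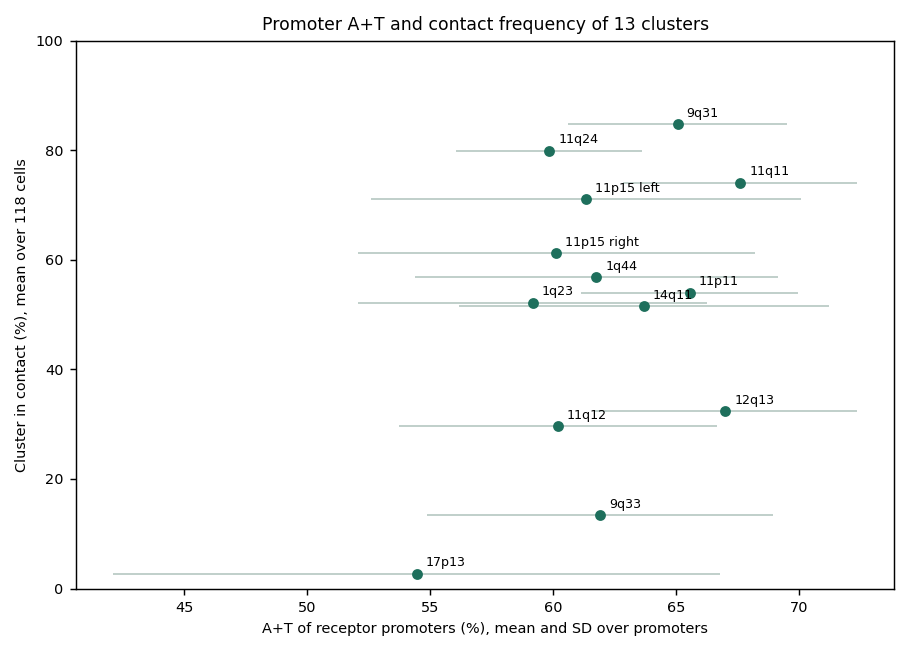
Mean contact of each cluster over 118 cells (vertical axis, percent) against the mean A+T content of its receptor promoters (horizontal axis, percent, bars are SDs over promoters). The 17p13 cluster lies apart at 54.4% A+T and 2.71% contact, and clusters between 59.2 and 67.6% A+T range from 13.3 to 84.7% contact.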

How the data were processed

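Single-cell DamID of LaminB1 was analysed in 118 cells, and 6 further samples were not analysed here. The authors deposited, for each cell and 100 kb bin of hg19, the ratio of observed over expected reads. How the expected part was made is not stated in the labels. Per the submitters' processing notes, cutadapt and Bowtie2 2.1.0 were used. An unfused Dam profile was not used here. Whole reads were recovered from the ratios, to a tolerance of 0.02 reads, for 100% of the 1697706 values above 0, with a script tested on simulated data. They lack molecular identifiers and numbered 28372 to 385661 per cell. Columns without a sample numbered 0.

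Contact was a ratio of 1 or more, flanks 1 Mb. Named bins are the highest and lowest of each cluster and any bin 40 points from both neighbours. Intervals are exact (Clopper-Pearson, 95%). Alternatives changed the contact value, depth, cells, bins, flanks and weights. The clusters, gene blocks and parts within clusters were chosen with earlier results of these data known. Python 3 scripts used numpy, pandas and scipy.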

Additional observations from a re-analysis of the deposited data

How the results depend on the processing

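Of 336 values recomputed under 16 alternatives, 15 moved by more than the spread between single cells (counts and shares: by over 1.5 times). That spread is a wide limit for means over 118 cells. None of the 336 values changed sign, but contact, shares, counts and signal cannot fall below 0. Only differences from flanks and correlations could have changed sign. By the size of the move alone, 34 of the 247 values of single clusters moved by over 1.5 times, 22 of them at a contact value of 2, where 12q13 was at 12.4%, 11q12 at 13.1%, 1q23 at 26.4%, 9q33 at 3.60% and 17p13 at 1.02%. At a contact value of 0.5, 9q33 was at 24.8% and 17p13 at 7.80%, and in the cells numbered from 96, 9q33 was at 25.0%. With 2 Mb flanks, 9q31 exceeded its flanks by 18.9 points. All 13 clusters stayed above their flanks in each alternative run, and 9 to 11 stayed above the mean of all usable bins. The contact value moved the levels most. At a contact value of 2, the clusters were at 32.3% and exceeded their flanks by 25.0 points. Bins at 80% or more were then 0% of the cluster bins, and bins under 20% were 30.7%. At a contact value of 0.5 these shares were 40.1 and 8.76%. In the cells numbered from 96 they were 32.8 and 9.49%. In the 104 cells with at least 3 reads at a ratio of 1, bins at 80% or more were 23.4%. The 6 values of single clusters beyond the spread between cells were contact at 11p11 (31.6%), 11q24 (48.0%) and the left cluster of 11p15 (45.5%), and the difference of 11q24 from its flanks (47.6 points), all at a contact value of 2, and the flank differences of the 11p15 clusters under other flanks (37.7 and 43.2 points). Thinning to 50000 reads, which left out 9 cells, gave 49.3% for the clusters. Without chromosome 11, chosen after the data were seen, the clusters were at 44.8% and exceeded their flanks by 31.0 points. The cause of these shifts was not tested beyond the construction of each alternative.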
